A study of Homo sapiens with 45 samples.

Results

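A set of 10 chaperone and co-chaperone genes, known as targets of the heat shock transcription factor HSF1, was followed through 45 polyA RNA-seq libraries of human HAP1 cells. The members were HSPA8, HSPA1A and HSPA1B (Hsp70 proteins), DNAJB1 and DNAJA1 (J-domain partners of Hsp70), HSPH1 and BAG3 (nucleotide exchange factors), HSP90AA1 (Hsp90 alpha), and HSPD1 with HSPE1 (the Hsp60 and Hsp10 chaperonin). They were taken by symbol from a table of 60676 genes, and 10 of 10 passed the filter on low counts that left 11078 tested genes. HSPD1 and HSPE1 work in the mitochondrial matrix, so the word cytosolic covers the other 8 members. HAP1 is a near-haploid adherent line derived from the leukaemia line KBM-7. RNF25 KO and GCN2 KO cells, each carrying a knockout (KO), and AAVS1 cells, the line named after a genomic site often edited as a neutral control, were given 25 nM halofuginone (HF), 5 uM azacytidine (azaC) or no drug, for 4 h. The double knockout (DKO) of RNF25 and GCN2, ZNF598 KO cells and eS31 K113R cells, which carry a lysine substitution in a ribosomal protein, were given 5 uM azaC or no drug. Each of the 15 groups held 3 libraries labelled as biological replicates, and the number of clones behind a line is not given in the sources used here. HF inhibits prolyl-tRNA synthetase and so activates the kinase GCN2, and azaC is a cytidine analogue built into RNA and DNA. The ubiquitin ligases RNF25 and ZNF598 work on ribosomes that have stalled.

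HSF1 is held inactive by chaperones in unstressed cells, and when unfolded protein occupies those chaperones it binds heat shock elements, arrays of inverted GAA units, upstream of chaperone genes. Hsp70 binds exposed hydrophobic stretches of new or damaged proteins, J-domain proteins deliver clients and stimulate its ATPase, and exchange factors release the client. HSPA8 is the constitutive Hsp70 and HSPA1A and HSPA1B the classical inducible pair, whose coding sequences are nearly identical.

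The sequences upstream of 5 members are shown because they hold the element that gives the set its name, and because HSPA8 and HSPD1, both with matches, gave the lowest and the highest HF fold change of the set when averaged over 3 genotypes. They are the 250 bases before a RefSeq start site (GRCh38.p14), 5′ to 3′ on the gene's strand, with capitals for matches to GAANNTTCNNGAA or TTCNNGAANNTTC with at most 1 of 9 fixed letters off. Overlapping matches run together, and each motif is the reverse complement of the other, so both strands are covered. HSPA8 lies on chr11:123062137-123062386 (minus strand), HSPA1A on chr6:31815293-31815542 (plus strand), DNAJB1 on chr19:14518398-14518647 (minus strand, the second of 3 RefSeq windows), HSP90AA1 on chr14:102087045-102087294 (minus strand, the second of 2 windows) and HSPD1 on chr2:197499841-197500090 (minus strand, the second of 2 windows).
HSPA8: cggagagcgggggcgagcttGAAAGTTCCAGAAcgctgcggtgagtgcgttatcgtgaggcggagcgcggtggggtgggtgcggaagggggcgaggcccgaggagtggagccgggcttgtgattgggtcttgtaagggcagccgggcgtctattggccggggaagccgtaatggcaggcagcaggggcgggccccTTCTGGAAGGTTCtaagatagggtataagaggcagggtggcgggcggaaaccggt
HSPA1A: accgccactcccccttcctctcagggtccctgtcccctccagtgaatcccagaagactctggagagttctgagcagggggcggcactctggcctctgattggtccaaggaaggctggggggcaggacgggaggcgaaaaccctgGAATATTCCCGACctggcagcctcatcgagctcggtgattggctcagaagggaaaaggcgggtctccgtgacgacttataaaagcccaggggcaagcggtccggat
DNAJB1: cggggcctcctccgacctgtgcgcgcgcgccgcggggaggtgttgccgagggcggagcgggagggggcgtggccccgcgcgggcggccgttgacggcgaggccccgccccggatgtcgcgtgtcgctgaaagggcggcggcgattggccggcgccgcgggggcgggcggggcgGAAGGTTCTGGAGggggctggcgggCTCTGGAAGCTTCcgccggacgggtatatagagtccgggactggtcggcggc
HSP90AA1: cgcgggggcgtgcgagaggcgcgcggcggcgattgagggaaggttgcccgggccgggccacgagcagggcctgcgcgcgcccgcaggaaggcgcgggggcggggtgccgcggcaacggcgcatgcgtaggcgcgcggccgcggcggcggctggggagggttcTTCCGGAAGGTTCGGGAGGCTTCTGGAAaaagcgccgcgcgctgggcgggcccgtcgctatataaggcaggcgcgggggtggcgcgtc
HSPD1: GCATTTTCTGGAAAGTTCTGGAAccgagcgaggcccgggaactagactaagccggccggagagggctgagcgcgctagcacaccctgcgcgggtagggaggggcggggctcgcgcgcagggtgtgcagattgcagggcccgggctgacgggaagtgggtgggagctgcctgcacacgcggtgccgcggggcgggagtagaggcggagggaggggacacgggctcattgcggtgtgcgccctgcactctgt
In windows of 300 bases, from 250 before to 50 after the start, the match was present for 7 of the 10 members, in 8 of their 14 windows, against 6.24% of all 35116 RefSeq promoter windows. With no letter off it was present in 4 of the members' 14 windows, those of HSPA8 (2 matches), DNAJA1, HSP90AA1 and HSPD1 (2 matches), against 0.49% of all windows. These letters were not found in the windows of HSPH1, HSPE1 and BAG3. The HSPD1 match (chr2:197500068-197500090) stands between the second HSPD1 start site and that of HSPE1, genes read in opposite directions. It ends 289 bases from the HSPE1 start, 39 bases outside the HSPE1 window. The first HSPD1 start site is 105 bases from that of HSPE1, so the match lies downstream of it, and its own window holds no match. A match is a description of the letters, and no binding was measured.

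On GRCh38, HSPA8 (ENSG00000109971) spans positions 123057489 to 123063230 of chromosome 11 and DNAJB1 (ENSG00000132002) positions 14514770 to 14529770 of chromosome 19, both on the minus strand. HSPA1A (ENSG00000204389, 31815464 to 31817946) and HSPA1B (ENSG00000204388, 31827735 to 31830255) are neighbours on the plus strand of chromosome 6. DNAJA1 (ENSG00000086061) lies on chromosome 9, HSPH1 (ENSG00000120694) on 13, HSP90AA1 (ENSG00000080824) on 14, BAG3 (ENSG00000151929) on 10, and HSPD1 (ENSG00000144381) and HSPE1 (ENSG00000115541) on 2. Reads were assigned to whole genes, so no value belongs to a single exon, intron or UTR.

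Library totals ran from 1135498 to 2478875 counts, and none of the 45 replicate pairs agreed within counting noise (chi-square of 3.18 or more per degree of freedom). AAVS1 untreated replicate 2 and RNF25 KO azaC replicate 2 stood apart in the slope of log2 level on GC content (-0.50 and 0.38 per 10 percentage points of GC, against a median of 0.03). The titles of untreated eS31 K113R replicates 2 and 3 name another protein and substitution, and these libraries were placed by the column their description names. Of 10 haematopoietic markers 0 had a median over 10 counts, and CD33, MPO, ITGAM and HBG1 were at 0 in every library, while VIM and COL1A1 were detected. EIF2AK4, the gene of GCN2, stood at 21.95 ± 2.41 CPM in untreated GCN2 KO cells and 43.96 ± 1.64 CPM in untreated AAVS1 cells (SD, n = 3), and at 39.6 ± 3.73 CPM in the untreated DKO, whose label therefore has no check from this mRNA. CPM are counts per 1e6 of a library's total after TMM scaling, which evens out library composition.

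In untreated AAVS1 cells the members covered a wide span of levels. Per kb of exon, HSP90AA1 (497 ± 76.2 CPM per kb, SD, n = 3), HSPD1 (478 ± 115) and HSPA8 (339 ± 69.0) stood highest, followed by HSPE1 (300.2 ± 23.7). DNAJA1 (123 ± 23.1 CPM per kb) and HSPA1A (123 ± 60.2) were equal within their spread, and HSPH1 (69.5 ± 23.1), DNAJB1 (49.2 ± 14.8) and BAG3 (17.4 ± 7.06) lay below them. HSPA1B stood at 1.56 ± 0.96 CPM per kb. It held 278 counts in all 45 libraries, 1.93% of those given to the HSPA1A and HSPA1B pair, with 0 to 21 per library. How the counting treated reads that fit both copies is not given in the sources used here, and 36.5% of the HSPA1B exon length is shared with AL671762.1 on the same strand, so its values are uncertain. HSPE1 is uncertain to a lesser degree, as it shares 14.2% of its exon length with HSPD1 on the opposite strand and 9.71% with HSPE1-MOB4 on the same strand.

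Without drug, no member was called between an edited line and AAVS1, apart from BAG3 in an alternative fit. With edgeR, 0 of 10 members passed an adjusted p of 0.05 in each of RNF25 KO, GCN2 KO, DKO, ZNF598 KO and eS31 K113R cells against AAVS1 cells, where 1.62%, 1.05%, 1.42%, 0.93% and 2.87% of all tested genes passed. DESeq2 also called 0 in each, and at an unadjusted p under 0.05 there were 0, 0, 1, 2 and 1 members. With the replicate number as a block plus GC-corrected offsets, BAG3 was called in ZNF598 KO and in eS31 K113R. HSPA8 means over 3 libraries lay between 1326 CPM in ZNF598 KO and 1704 CPM in GCN2 KO cells. BAG3, which links Hsp70 to selective autophagy, had the widest ratio among the members other than HSPA1B, at 26.7 ± 12.2 CPM in eS31 K113R cells and 47.8 ± 19.4 CPM in AAVS1 cells (log2 fold change -0.83 ± 0.32 (SE), adjusted p = 0.224, edgeR).

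The libraries of a group differed among themselves in a way that followed the replicate number of the labels. HSPA1A was lowest in replicate 3 in 14 of 15 groups, DNAJB1 in 14, HSPH1 in 15 and HSPA8 in 12, while HSPE1 was lowest in replicate 2 in 12 groups. For HSPA1A the means of the 3 numbers, taken as deviations from the group means, spanned 1.29 on the log2 scale, more than for 99.6% of tested genes (median 0.30). The span was also wide for DNAJB1 (0.90, more than for 97.5% of genes) and HSPH1 (0.73, 93.8%). For HSPE1 it was 0.43 (71.6%), and for HSPA8 it was 0.29 (47.9%), near that median. What set the replicate numbers apart was not tested. The replicate number was not a term of the fit, so that this spread stands in the errors given here.

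**Figure D1:**
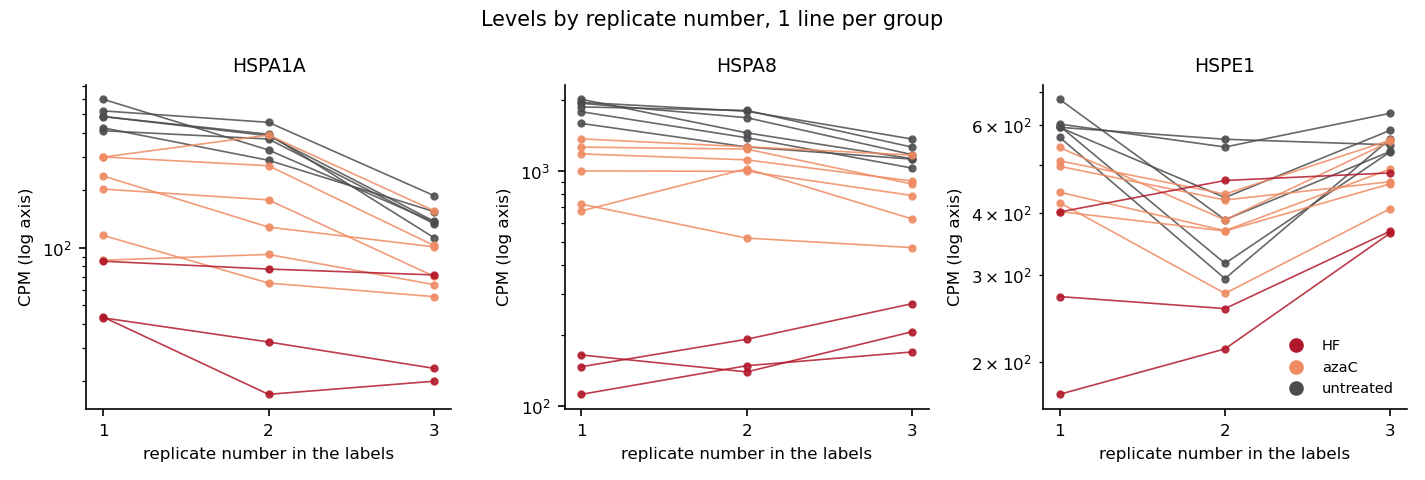
Level (CPM, log axis) of HSPA1A, HSPA8 and HSPE1 in the libraries with replicate number 1, 2 and 3; each line joins the 3 libraries of 1 of the 15 groups, in the colour of its treatment, and the numbers have no order. HSPA1A was lowest in replicate 3 in 14 of 15 groups and HSPE1 in replicate 2 in 12. The means of the 3 numbers spanned 1.29 on the log2 scale for HSPA1A, 0.43 for HSPE1 and 0.29 for HSPA8, against a median of 0.30 over tested genes.

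HF lowered most members when the 3 genotypes were averaged, and HSPA8, HSPA1A, DNAJB1 and DNAJA1 were among the 7 genes with the lowest fold changes. HSPA8 had 112.5, 148.8 and 170.3 CPM in HF-treated RNF25 KO libraries, against 1938, 1683 and 1172 CPM in untreated ones. It had 147.4, 192.8 and 273.1 CPM in HF-treated GCN2 KO libraries, against 1955, 1792 and 1365 CPM untreated. In AAVS1 it had 165.3, 140.1 and 207.5 CPM with HF, against 1869, 1806 and 1261 CPM without. Every HF library lay below every untreated one in each genotype. The log2 fold changes were -3.47 ± 0.26 in RNF25 KO (adjusted p = 2.98e-13), -3.05 ± 0.26 in GCN2 KO (2.28e-11) and -3.26 ± 0.26 in AAVS1 (1.18e-12, edgeR, n = 3 per group), or 8.31-fold to 11.1-fold lower. Averaged over the 3 genotypes, HSPA8 (-3.26 ± 0.15), HSPA1A (-3.06 ± 0.32) and DNAJB1 (-2.58 ± 0.24) had the 3 lowest fold changes of all 11078 tested genes, and DNAJA1 was at rank 7. As bulk values, these cannot tell fewer expressing cells from less RNA per cell.

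The inducible Hsp70 moved with the constitutive one. HSPA1A had 43.0, 32.2 and 23.4 CPM in HF-treated RNF25 KO libraries, against 486, 386 and 138 CPM untreated. It had 85.1, 77.4 and 72.1 CPM in HF-treated GCN2 KO libraries, against 520.2, 453 and 188 CPM untreated. In AAVS1 it had 43.5, 17.1 and 20.03 CPM with HF, against 409.7, 371 and 134 CPM without. The groups did not overlap in any of the 3 genotypes, although the untreated replicate 3 libraries were low. The fold changes were -3.35 ± 0.56, -2.31 ± 0.52 and -3.54 ± 0.58 in that order of genotypes (adjusted p = 1.06e-04, 0.0109 and 5.35e-05, edgeR). In GCN2 KO cells the call was lost when untreated replicate 1 or any of the 3 HF libraries was left out, with an adjusted p of up to 0.0935. HSPA1B had 7, 0 and 0 counts in HF-treated RNF25 KO libraries, against 11, 13 and 4 untreated. It had 3, 1 and 4 counts in GCN2 KO with HF, against 13, 9 and 2 without, and 3, 1 and 0 counts in AAVS1 with HF, against 7, 9 and 2 without. No HF library reached the filter's minimum of 10 counts, so HSPA1B was tested through the groups where it is higher, and its call (averaged -2.04 ± 0.54, adjusted p = 0.0118, edgeR) adds no support.

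The J-domain partners of Hsp70 fell too. DNAJB1, the main heat-inducible class B member, had 28.3, 41.0 and 17.6 CPM in HF-treated RNF25 KO libraries, against 221, 164 and 102 CPM untreated. It had 39.0, 31.3 and 40.8 CPM in HF-treated GCN2 KO libraries, against 300.8, 200.2 and 132 CPM untreated, and 34.9, 23.5 and 23.1 CPM in AAVS1 with HF, against 233, 184 and 125 CPM without. No HF library reached 50 CPM, and no untreated library of these genotypes was under 100 CPM. DNAJA1, a class A member, had 52.4 to 103.5 CPM over the 9 HF libraries (median 84.5), against 228 to 458 CPM over the 9 untreated libraries (median 363). Its fold changes were close in size in all 3 genotypes, at -2.13 ± 0.22 in RNF25 KO, -1.99 ± 0.22 in GCN2 KO and -1.89 ± 0.22 in AAVS1 (adjusted p at most 3.21e-08, edgeR). The calls of HSPA8, DNAJB1 and DNAJA1 in all 3 genotypes, and of HSPA1A in RNF25 KO and AAVS1, held under every alternative run.

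Members that act on or beside Hsp70 gave smaller averaged fold changes than HSPA8, HSPA1A, DNAJB1 and DNAJA1, a difference that was not tested. BAG3 had 7.07 to 22.7 CPM over the 9 HF libraries (median 17.7), against 27.2 to 66.3 CPM over the 9 untreated libraries (median 43.7), with no overlap. It passed in RNF25 KO (-1.86 ± 0.35, adjusted p = 7.32e-04) and AAVS1 (-1.505 ± 0.34, 0.00607), while GCN2 KO gave -1.10 ± 0.34 (0.111, edgeR). The AAVS1 call was lost without untreated replicate 1 or HF replicate 2, and when only the compared groups were fitted (adjusted p up to 0.186). HSPH1 is the Hsp110 exchange factor of Hsp70, and HSP90AA1 matures kinases and steroid receptors. Neither passed in a single genotype in the edgeR fit without the replicate number, with fold changes of -0.82 to -1.03 and -0.49 to -0.51. With that number as a block, edgeR called HSPH1 and HSP90AA1 in all 3 genotypes (adjusted p at most 0.00314 and 0.0239). BAG3 was then also called in GCN2 KO (0.0220, edgeR). DESeq2 called HSP90AA1 in all 3 genotypes and HSPH1 in RNF25 KO. Averaged over the 3 genotypes both passed (HSPH1 -0.91 ± 0.18, adjusted p = 3.79e-04; HSP90AA1 -0.50 ± 0.09, adjusted p = 1.44e-04, edgeR). The 9 HF libraries held 1564 to 1946 CPM of HSP90AA1, against 2086 to 2953 CPM in the 9 untreated ones, a small shift with no overlap.

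Of the mitochondrial pair, HSPE1 was called in RNF25 KO and AAVS1, and HSPD1 in no genotype. HSPE1 had 172, 212 and 364 CPM in HF-treated RNF25 KO libraries, against 594, 429 and 586 CPM untreated (-1.10 ± 0.24, adjusted p = 0.00400, edgeR), and 271, 256 and 367 CPM in AAVS1 with HF, against 603, 542 and 634.5 CPM without (-0.99 ± 0.24, 0.0133). In GCN2 KO it had 401, 464 and 481 CPM with HF, against 594, 562 and 548 CPM without (-0.34 ± 0.23, 0.709). Each HF group lay below its untreated group. Leaving out HF replicate 1 or 2 ended the call in RNF25 KO (adjusted p up to 0.0951) and in AAVS1, where leaving out untreated replicate 3 or fitting only the compared groups also did (up to 0.124). HSPD1 had 1317 to 2180 CPM over the 9 HF libraries, against 1551 to 2725 CPM over the 9 untreated ones, groups that overlap (averaged -0.22 ± 0.12, adjusted p = 0.297, edgeR). In each of the 3 genotypes HSPD1 was lower in the HF library than in the untreated library of the same number in 3 of 3 numbers. The numbers were not taken to pair the samples, and no share over all genes was computed for this pattern. The difference between the fold changes of these 2 genes was not tested.

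Counted together, 6 of 10 members were called lower with HF in RNF25 KO, 4 in GCN2 KO and 6 in AAVS1, where 0.506%, 0.506% and 0.487% of all tested genes were. Averaged over the 3 genotypes it was 9 of 10, or 8 when HSPA1B is set aside, against 3.06% of all genes, and HSPD1 was not called. With HSPA1B included, the members' median log2 fold change was -1.98 in RNF25 KO, -1.53 in GCN2 KO and -1.70 in AAVS1. Over all tested genes it was 0.00, 0.00 and 0.01 in that order. With HSPA1B set aside, the middle member was BAG3 in each genotype, with a fold change nearer 0 than the members' median. Every HF library lay below every untreated library in 8 members in RNF25 KO, 7 in GCN2 KO and 8 in AAVS1, as it did in 6.9%, 7.92% and 7.05% of all tested genes. Without the 2 libraries of extreme GC slope, 6 members were called in AAVS1 and HSPA8 stood at -3.19 (adjusted p = 2.49e-12, edgeR).

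**Figure D2:**
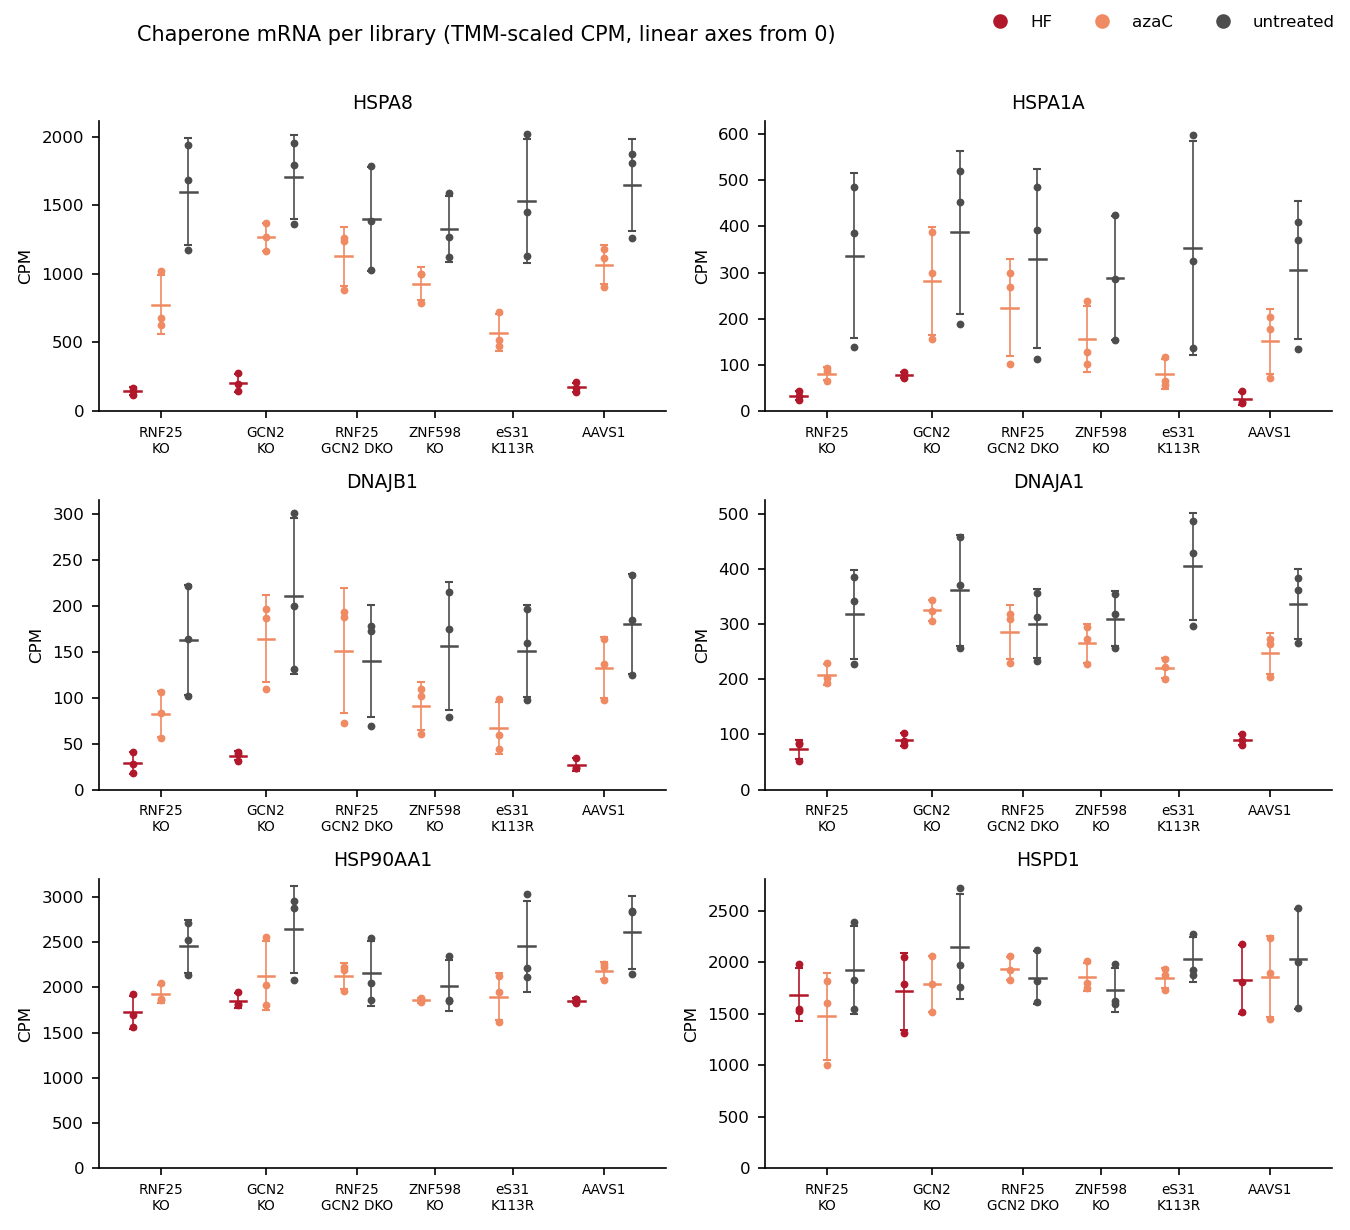
CPM of 6 members in each library (points), with the mean (bar) and SD (whiskers, n = 3) of each group, HF in red, azaC in orange and untreated in grey, genotypes along the horizontal axis with AAVS1 last; axes start at 0. HF libraries of HSPA8 lie between 112.5 and 273.1 CPM, below every azaC and untreated library, while HSPD1 groups overlap.

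The HF responses in GCN2 KO and in RNF25 KO cells were each set against those in AAVS1 cells. Dependence on GCN2 itself was not tested, as the number of clones behind a line is not given. Of 8 reference genes for the integrated stress response, which GCN2 starts by phosphorylating eIF2, HF raised 8 in RNF25 KO and 8 in AAVS1 cells but 2 in GCN2 KO cells (SESN2 and DDIT3). The members' responses in GCN2 KO, set against those in AAVS1, gave 0 of 10 calls with edgeR (0 at an unadjusted p under 0.05, 0 with DESeq2), where 0.334% of all genes were called. For HSPA8 the difference of responses was 0.21 ± 0.34 on the log2 scale (95% interval -0.47 to 0.89), for DNAJB1 0.24 ± 0.57 (-0.91 to 1.38) and for DNAJA1 -0.10 ± 0.30 (-0.71 to 0.51). For HSPA1A the difference was 1.23 ± 0.75 (-0.29 to 2.74) and for HSPE1 0.65 ± 0.33 (-0.02 to 1.32), both towards a smaller fall in GCN2 KO cells and neither called (adjusted p = 0.824 and 0.718, edgeR). HSPA1A was called for this difference without the filter on low counts, and with the replicate number as a block plus GC-corrected offsets. In RNF25 KO against AAVS1, 0 of 10 members were called for a difference in their response to HF (0 at an unadjusted p under 0.05, 0 with DESeq2), where 0% of all genes were called, and HSPA8 gave -0.21 ± 0.34 (-0.90 to 0.48).

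**Figure D3:**
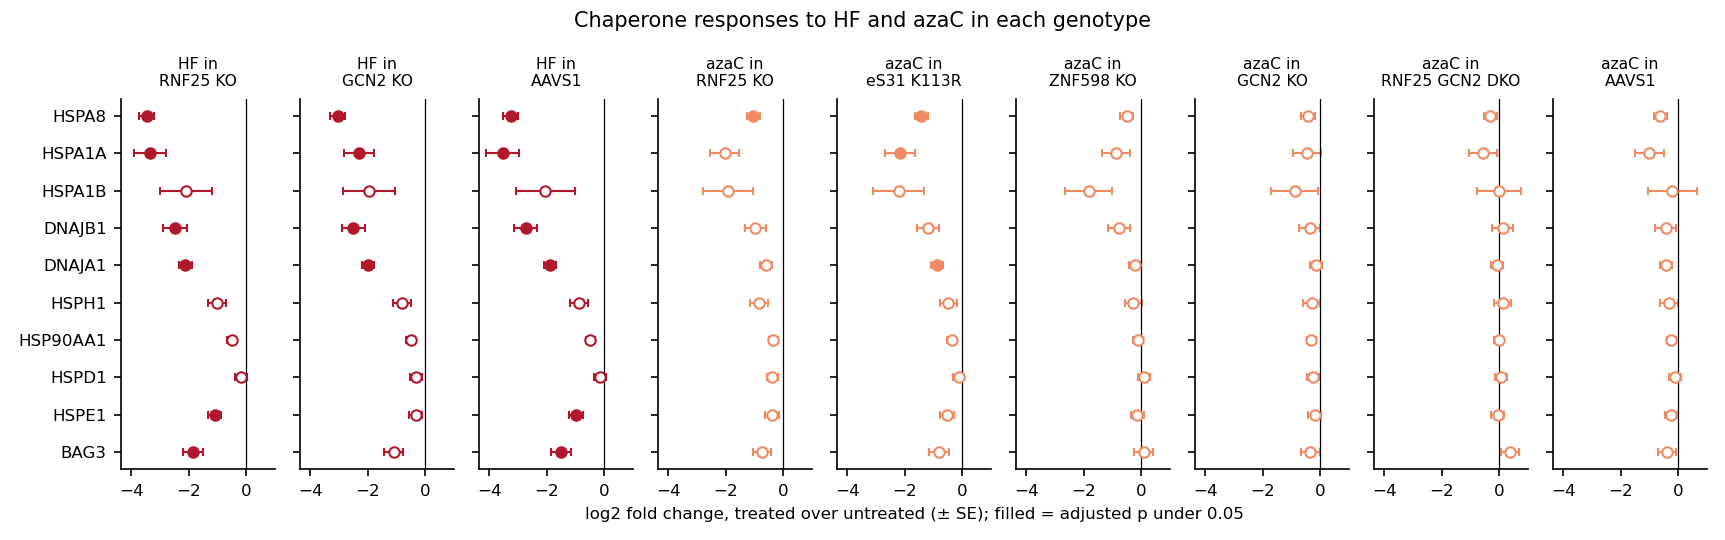
Log2 fold change (± SE) of each member with HF (red, 3 panels) and azaC (orange, 6 panels) over untreated cells of the same genotype, from edgeR with n = 3 libraries per group; filled points have an adjusted p under 0.05. HSPA8, HSPA1A, DNAJB1 and DNAJA1 are filled in each of the 3 HF panels, and filled azaC points are found in RNF25 KO and eS31 K113R.

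AzaC lowered fewer members, and within single genotypes calls were made in 2 of 6. In eS31 K113R, HSPA8 had 723, 518 and 472 CPM with azaC, against 2015, 1451 and 1126 CPM without (-1.42 ± 0.24, adjusted p = 2.16e-04, edgeR). In RNF25 KO it had 676, 1022 and 625 CPM with azaC, against 1938, 1683 and 1172 CPM without (-1.04 ± 0.24, 0.0188). The groups were apart in both genotypes. Every azaC library lay below every untreated one for 4 members in eS31 K113R and 5 in RNF25 KO. The same held for 4.73% and 4.85% of all tested genes. HSPA1A had 116, 65.4 and 55.5 CPM with azaC in eS31 K113R, against 598, 325 and 137 CPM without (-2.17 ± 0.52, 0.0309), and DNAJA1 had 236.3, 223.3 and 200.8 CPM, against 488, 430.1 and 297 CPM (-0.88 ± 0.21, 0.0284). In RNF25 KO, HSPA1A had 86.0, 92.3 and 64.2 CPM with azaC, against 486, 386 and 138 CPM without, groups that did not overlap (-2.05 ± 0.52, adjusted p = 0.0522, not called). The members called were thus 3 in eS31 K113R and 1 in RNF25 KO, where 0.0451% and 0.0181% of all genes were called lower.

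Most of these calls were lost when certain single libraries were left out. With the replicate number as a block in edgeR, none was lost. HSPA1A, DNAJB1 and HSPH1 were then also called in RNF25 KO, and DNAJB1 in eS31 K113R. The HSPA8 call held under every alternative in eS31 K113R. With only replicate 1 kept in the untreated group, HSPA8 stood at -1.83, HSPA1A at -2.94 and DNAJA1 at -1.15 (adjusted p = 3.82e-04, 0.00779 and 0.0431, edgeR). In RNF25 KO the HSPA8 call was lost without untreated replicate 1 or 2 or azaC replicate 1 or 3, and when only the compared groups were fitted, where HSPA1A was called in its place (adjusted p of HSPA8 up to 0.230), while without the libraries of extreme GC slope it stood at -1.30 (adjusted p = 0.00425, edgeR). In eS31 K113R the HSPA1A call was lost without untreated replicate 1 or 2 or azaC replicate 2 or 3 (up to 0.567), and the DNAJA1 call without untreated replicate 1 or 2 or any azaC library, or with only the compared groups fitted (up to 0.347).

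In the other genotypes 0 of 10 members were called with azaC. This held with edgeR and DESeq2 in ZNF598 KO and AAVS1, where 0.117% of all genes were called in each, and in GCN2 KO and the DKO, where 0% were. Members with an unadjusted p under 0.05 numbered 3 in ZNF598 KO, 3 in AAVS1, 0 in GCN2 KO and 0 in the DKO. HSPA8 had 999, 996 and 786 CPM with azaC in ZNF598 KO libraries, against 1591, 1264 and 1122 CPM untreated, and 1181, 1114 and 905.5 CPM with azaC in AAVS1, against 1869, 1806 and 1261 CPM. In GCN2 KO it had 1367, 1266 and 1167 CPM with azaC, against 1955, 1792 and 1365 CPM untreated, and in the DKO 1262, 1238 and 879 CPM, against 1784, 1383 and 1028 CPM. The groups stood apart in ZNF598 KO and AAVS1 and overlapped in both lines labelled as lacking GCN2. HSPA8 was the only member apart in ZNF598 KO and in AAVS1, where 4.07% and 4.35% of all tested genes were apart in this direction. In GCN2 KO and the DKO 0 members were, against 4.35% and 3.68% of genes. For HSPA8, each azaC library was below the untreated library of the same number in all 6 genotypes, though the numbers were not taken to pair the samples. The fold changes of HSPA8 ran from -0.31 ± 0.23 in the DKO to -1.42 ± 0.24 in eS31 K113R.

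Over several genotypes the response to azaC passed for 4 members. Averaged over 6 genotypes, HSPA8 (-0.72 ± 0.10, adjusted p = 9.38e-07), HSPA1A (-1.19 ± 0.20, 1.58e-04), DNAJB1 (-0.61 ± 0.15, 0.0263) and DNAJA1 (-0.40 ± 0.08, 0.00440, edgeR) were called lower, 4 of 10 against 0.172% of all genes. The DNAJB1 call was lost in 7 of 36 fits that left out 1 library (adjusted p up to 0.0645). Over the 4 genotypes not labelled as GCN2-deleted the same 4 members were called, at -0.90 ± 0.12, -1.53 ± 0.25, -0.84 ± 0.19 and -0.54 ± 0.10, against 0.162% of all genes. Over the 2 labelled as GCN2-deleted, 0 of 10 were (1 at an unadjusted p under 0.05, 0 with DESeq2), against 0% of all genes, and HSPA8 stood at -0.37 ± 0.17.

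The difference between those 2 averages was itself tested. With edgeR 0 of 10 members passed (4 at an unadjusted p under 0.05, 0 with DESeq2), where 0.199% of all genes did. The differences, GCN2-deleted minus the other 4 genotypes, were 0.53 ± 0.20 for HSPA8 (95% interval 0.12 to 0.94), 1.02 ± 0.43 for HSPA1A (0.16 to 1.88), 0.72 ± 0.32 for DNAJB1 (0.07 to 1.36) and 0.42 ± 0.18 for DNAJA1 (0.06 to 0.79), each towards a smaller fall in the lines labelled as GCN2-deleted. With the replicate number as a block HSPA1A (1.00, adjusted p = 0.00655) and DNAJB1 (0.71, adjusted p = 0.0425, edgeR) passed. The DKO set against RNF25 KO gave 0 of 10 calls (5 at an unadjusted p under 0.05, 0 with DESeq2), against 0.117% of all genes, with 0.73 ± 0.33 for HSPA8 (0.06 to 1.40).

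Set against AAVS1, the responses of RNF25 KO, GCN2 KO, the DKO, ZNF598 KO and eS31 K113R to azaC likewise gave 0 of 10 calls with edgeR and with DESeq2. Of all genes 0%, 0.00903%, 0.0451%, 0% and 0.00903% were called, and members at an unadjusted p under 0.05 numbered 0, 0, 0, 0 and 1. That 1 was HSPA8 in eS31 K113R (-0.80 ± 0.33, 95% interval -1.47 to -0.13). These 5 comparisons share the AAVS1 libraries and are not independent of each other.

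The drugs could be compared directly in the 3 genotypes given both. AzaC-treated cells held more than HF-treated cells of 6 members, where 3.71% of all genes were called higher. The difference was 2.56 ± 0.15 for HSPA8 (adjusted p = 1.59e-17), 1.98 ± 0.24 for DNAJB1 (1.99e-07), 1.89 ± 0.32 for HSPA1A (6.67e-05), 1.60 ± 0.13 for DNAJA1 (1.38e-12), 1.00 ± 0.20 for BAG3 (6.86e-04) and 0.53 ± 0.14 for HSPE1 (0.00846, edgeR). Over all libraries HSPA8 had 112.5 to 273.1 CPM with HF (median 165.3, 9 libraries), 472.4 to 1367 CPM with azaC (median 998, 18 libraries) and 1028 to 2015 CPM untreated (median 1521, 18 libraries). In the order of the 15 group means, the 3 HF groups of HSPA8 were lowest and the 6 untreated groups highest, and of 14 neighbouring pairs the gap exceeded the larger SD of the pair in 1, between eS31 K113R with azaC (571 ± 133 CPM) and GCN2 KO with HF (204 ± 63.6 CPM). For HSPA1A that 1 gap lay between GCN2 KO with HF (78.18 ± 6.501 CPM) and RNF25 KO with HF (32.9 ± 9.82 CPM). For HSPA1B, HSPH1, HSP90AA1, HSPD1 and HSPE1 there was no such gap, so neighbours in their order did not differ beyond the spread.

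Lists of other chaperone genes had medians nearer 0 with HF than the members, but single genes overlapped with them. JMJD6 and DEDD2 had lower fold changes than HSPH1, HSPE1, HSP90AA1 and HSPD1. CHORDC1, HSPA5, SERPINH1 and BAG1 had lower ones than HSP90AA1 and HSPD1. Differences between lists were not tested, and the members and lists were chosen with earlier results of these data known. The factors themselves did not pass: of HSF1, HSF2 and HSBP1 0 of 3 were called with edgeR (0.11 ± 0.14, 0.21 ± 0.13 and -0.30 ± 0.14, averaged over the 3 genotypes). The median of 18 other tested genes known as heat shock induced was -0.25, against -1.75 for the members (HSPA1B included) and 0.01 for all genes. With HSPA1B set aside, the middle member was BAG3, which lay between -1.65 and -1.40 over the alternatives run. Of these 18 genes, 6 were called lower and 0 higher. These were JMJD6 (-1.37 ± 0.20), DEDD2 (-1.30 ± 0.22), the Hsp90 partners CHORDC1 (-0.80 ± 0.17) and AHSA1 (-0.50 ± 0.13), the collagen chaperone SERPINH1 (-0.77 ± 0.16) and the constitutive Hsp90 gene HSP90AB1 (-0.32 ± 0.07). Of 13 Hsp70 and Hsp90 co-chaperones BAG1 was called lower (-0.63 ± 0.14) and FKBP5 higher (0.51 ± 0.16). Of the 8 subunits of the cytosolic chaperonin TRiC 0 were called. Of 8 other mitochondrial chaperones and proteases GRPEL1, the exchange factor of mitochondrial Hsp70, was called lower (-0.45 ± 0.10), and of 13 ER chaperones the ER Hsp70 HSPA5 (-0.78 ± 0.09) and MANF (-0.43 ± 0.10). The 8 reference genes of the integrated stress response were called higher, with a median of 2.34. With azaC averaged over 6 genotypes, CHORDC1 (-0.54 ± 0.12) alone of the first 6 lists was called lower and 0 genes higher, while 8 of 8 reference genes were higher (median 1.73).

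**Figure D4:**
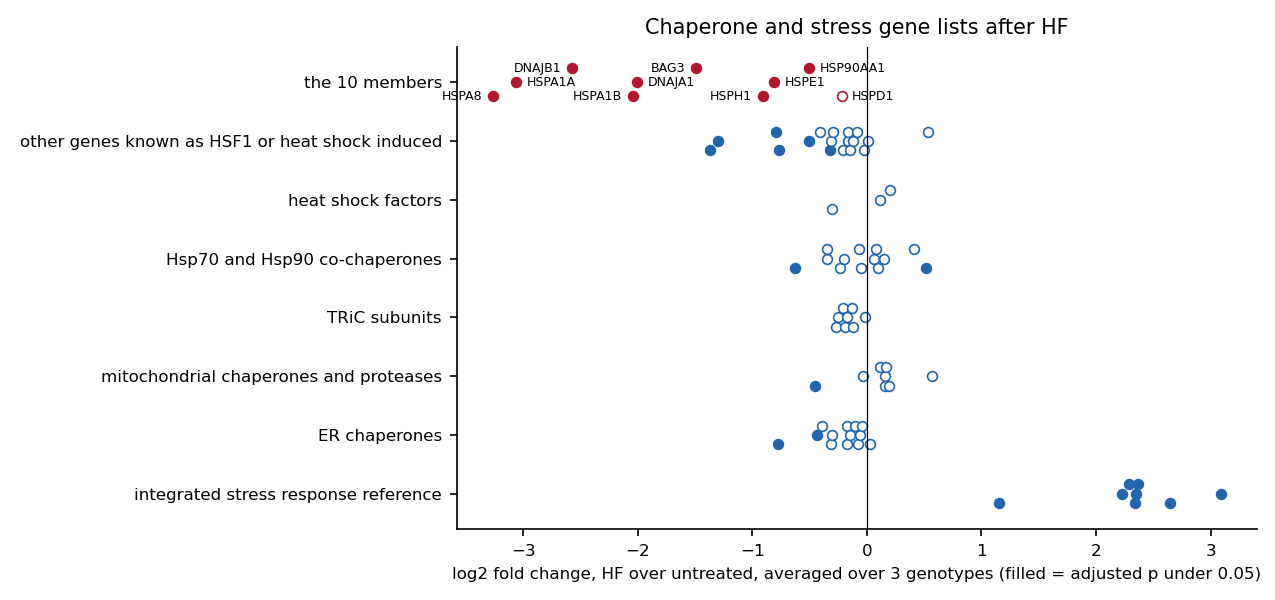
Log2 fold change with HF, averaged over RNF25 KO, GCN2 KO and AAVS1, of each member (red) and of 7 lists of other genes (blue), from edgeR; filled points have an adjusted p under 0.05 and vertical jitter has no meaning. The members' median, HSPA1B included, is -1.75 and that of the other heat shock induced genes -0.25. With HSPA1B set aside the middle member is BAG3, whose fold change is nearer 0 than that median.

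The members followed each other across the 15 group means to different degrees, given as Pearson's r of log2 CPM with the mean of the other 9, as a description over groups that share genotypes. DNAJB1 (0.98), HSPA8 (0.97), HSPA1A (0.96) and DNAJA1 (0.95) were closest and HSPD1 (0.55) farthest. HSPA8 spanned 3.56 on the log2 scale between its lowest and highest group and HSPD1 0.56. Among genes outside the set, those most like the members' mean included BICD2, a dynein adaptor (r = 0.957), TFRC, the transferrin receptor (0.945), HSPA5 (0.928), CCDC117 (0.922), the RNA helicase DDX5 (0.921), JMJD6 (0.918) and the tubulin gene TUBA1C (0.918). By Spearman's rho 2 of the top 8 were again among the top 8. Those most like HSPA8 alone included TFRC (0.968), HSPA5 (0.945), the ubiquitin-conjugating enzyme UBE2L3 (0.935) and TUSC2 (0.931). With HF averaged over genotypes TFRC stood at -1.27 ± 0.16 (adjusted p = 1.01e-07, edgeR), against -3.26 ± 0.15 for HSPA8.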

How the data were processed

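PolyA RNA of HAP1 cells was made into CORALL mRNA-Seq V2 libraries, per the labels' protocols. The deposited values are raw read counts per gene on GRCh38, made by the authors with STAR 2.7.10b and HTSeq 0.9.1 per the submitters' processing notes. No label or note used here names the annotation release, the strand setting or whether molecular identifiers were used. All 45 columns were mapped to samples by the column names in the labels, and 0 per-sample columns were left out. Untreated eS31 K113R replicates 2 and 3, whose titles carry another protein and substitution, were placed by the column named in their description. The 2862 entries without a symbol held 0.0286% of counts. They were kept in the library totals and went through the same filter on low counts as the other genes.

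Genes passing filterByExpr (minimum count 10) were normalised by TMM and tested with edgeR 4.0.16 (R 4.3.3, limma 3.58.1) by the two-sided quasi-likelihood test on 15 group means, with 30 residual degrees of freedom and Benjamini-Hochberg adjustment over all 11078 genes in each of 28 comparisons. An adjusted p under 0.05 was called. The test was tried on simulated data first. DESeq2 1.42.0, other scaling and filters, GC correction, a replicate block and leaving out libraries were the alternatives. Log2 CPM for likeness used a prior count of 2. Replicates are labelled as biological, and no label says that they came from separate cultures, so p-values measure the spread between these libraries.

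Beyond the members, the genes named were taken from the 8 most like the members' mean and the 5 most like HSPA8 by Pearson's r, and those passing the test in 7 lists; 1 gene among the most like is not reported here. The members and lists were chosen with earlier results of these data known. Promoter windows are from RefSeq (GRCh38.p14), where 10 of 10 members matched by symbol.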

Additional observations from a re-analysis of the deposited data

How the results depend on the processing

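No called fold change of a member was reversed under any alternative run. Counts of called members moved by over 1.5 times in 32 cases and did not in 543, and fold changes of called members lost their call in 35 cases and kept it in 979. Without the filter on low counts, 1 member (HSPA1A) was called with azaC in ZNF598 KO and 1 in AAVS1, and 4 members in RNF25 KO. HSPA1A was then also the 1 member called in 3 differences of responses: HF in GCN2 KO minus AAVS1, azaC in GCN2-deleted minus other lines, and azaC in the DKO minus RNF25 KO. With GC-corrected offsets, azaC in RNF25 KO gave 2 members. Leaving out 1 library at a time gave 0 to 2 members with azaC in RNF25 KO, 1 to 3 in eS31 K113R, and 4 to 7 averaged over the 4 genotypes not labelled as GCN2-deleted, where the 7 came without AAVS1 untreated replicate 3. The cause of these shifts was not tested. DESeq2 size factors, DESeq2, summing HSPA1A with HSPA1B, leaving out the 2 libraries of extreme GC slope, keeping only replicate 1 of untreated eS31 K113R and fitting only the compared groups moved no count of members by over 1.5 times. Fitting only the compared groups moved the count over all genes by more than that in 8 of 19 comparisons, to as low as 0.129 times.

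Over 315 same-numbered pairs of libraries from different groups, the correlation of deviations ran from -0.247 to 0.463 (median 0.149, 229 over 0.1), so the numbers were not taken to pair the samples in the shared fit. Within 10 of 14 comparisons of 2 groups each of the 3 same-numbered pairs exceeded 0.1, and in azaC and HF against untreated in RNF25 KO and in GCN2 KO they did not. As a hint from the data and not the design, 42 of 45 libraries correlated best with their own number. With a replicate block, called members numbered 4 with azaC in RNF25 KO, 7 with HF in GCN2 KO and 8 in RNF25 KO and in AAVS1 (HSPH1 and HSP90AA1 were gained in each), 8 with azaC averaged over 6 genotypes, 8 over the 4 not labelled as GCN2-deleted and 2 in the difference between GCN2-deleted and other lines (HSPA1A, adjusted p = 0.00655, and DNAJB1, 0.0425, edgeR). With the replicate block and GC-corrected offsets the count over the 4 genotypes not labelled as GCN2-deleted was 9, and the other counts just named were unchanged. There was then 1 member (HSPA1A) for azaC in AAVS1 and 1 (HSPA1A) for the HF response of GCN2 KO minus AAVS1. Untreated ZNF598 KO and eS31 K113R gave 1 each, BAG3 in both. The azaC response of the DKO minus RNF25 KO gave 2. HSPD1 was then gained for HF averaged over 3 genotypes, which made 10 of 10. Over all genes, the replicate block moved the count of calls by over 1.5 times in 15 of 19 comparisons, at ratios of 1.15 to 2.32. Depth limits HSPA1B most, at 0 to 21 counts per library.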
